A study of Mus musculus with 6 samples.

Results

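The genes described here are 31 leukocyte lineage genes, read by symbol in the counts of mouse mammary cells sorted for the reporter of the adhesion receptor Gpr125 (gene Adgra3). They were taken as a given list of macrophage, dendritic cell, T, B, NK, mast cell and neutrophil markers, all of which were found among the 55291 symbols listed. The list holds 4 pan-leukocyte genes, 3 shared myeloid genes, 9 macrophage and monocyte genes, 1 dendritic cell and progenitor gene, 5 T cell genes, 3 B cell genes, 3 NK and cytotoxic genes, 2 neutrophil genes and 1 mast cell gene. The 6 RNA-seq libraries comprised 2 of Gpr125-negative cells, 2 of Gpr125+ cells from the TEB-distal gland and 2 of Gpr125+ cells from the nipple-proximal gland, where TEB is the terminal end bud, the growing tip of the pubertal duct. Every library came from pubertal Adgra3-lz/+ mice on an FVBN background at 6 weeks, which carry 1 Adgra3 allele with a stretch of exons replaced by lacZ, so that the controls carry the same allele and no wild-type gland was included. Each library pooled the abdominal glands of 5 mice, although the methods text gives a different number of mice per preparation and a range of pubertal ages. The lymph node was taken out, and its place was used to divide the gland into its distal and nipple-proximal portions. The records of the libraries labelled Gpr125-negative give no region.

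Leukocytes enter the mammary gland from the blood and settle around the ducts, where macrophages and mast cells are known to gather at the pubertal end buds. Their lineages are told apart by genes for the parts of their own machinery: CD3 chains and Lck in T cells, CD79 chains in B cells, C1q and the CSF1 receptor in macrophages, and the calprotectin subunits S100a8 and S100a9 in neutrophils. Cells bearing CD45, the leukocyte phosphatase encoded by Ptprc, were gated out together with CD31+ and Ter119+ cells. The methods text lists an antibody to CD140a beside those to these antigens. The remaining cells with high CD49f were sorted on the fluorescence of FDG, a substrate of the β-galactosidase reporter. The listed genes were read in what remained after this gate, and which cells their RNA came from was not tested. In RNA from sorted pools, fewer cells of a type and less RNA per cell cannot be told apart.

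Total counts were between 20134890 and 37296640 per library, and a level of 3 counts, taken as the floor, corresponded to 0.0645 to 0.147 CPM. CPM here is the usual count scaled to sequencing depth, with TMM-normalized library sizes, and floors and intervals cover counting error only, since the SMART-Seq HT libraries hold no molecular identifiers. The counts of Adgra3 were 1658 and 550 for the label Gpr125-negative, 385 and 142 for TEB-distal and 391 and 262 for nipple-proximal cells. Its level was thus not lower in the libraries labelled Gpr125-negative, and each direction given below is against libraries so labelled. All 10 basal epithelial markers exceeded 3 counts in every library, with a summed level of 3383 to 22186 CPM (Krt17, Krt14 and Acta2 leading). The 8 endothelial markers, led by Emcn, Cldn5 and Cdh5, summed to 751 to 860 CPM under the label Gpr125-negative, 13.7 to 16.9 CPM in TEB-distal and 19.4 to 122 CPM in nipple-proximal cells. Red cell markers summed to at most 1.32 CPM.

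The start regions of several members share a short element, shown here because the printed genes include partners that are compared below. GGAAGT, on either strand, is a form of the site bound by ETS factors, the family that includes PU.1, a regulator of myeloid and B cell genes. RefSeq start windows (GRCm38.p6, 250 bases before to 50 after the start) were matched for 21 of the 31 members, and 15 of these (71.4%) held GGAAGT or its reverse complement, against 26.5% of 27025 genes. The longer GAGGAAGT, which contains GGAAGT, was present in 3 of the 21 (14.3%: Ctss, C1qc and S100a8), against 3.69% of all genes. A match of letters describes the window and is not a binding site. Each 30-base stretch below is written 5′ to 3′ on the strand of its gene and lies upstream of the gene, and the capitals mark GGAAGT or its reverse complement ACTTCC. They lie at chr4:136886236-136886265 (minus strand) for C1qb, chr4:136893092-136893121 (minus) for C1qc, chr3:90668887-90668916 (plus) for S100a8, chr3:90695892-90695921 (minus) for S100a9 and chr9:44981575-44981604 (plus) for Cd3d.
C1qb: acaggacctgaaACTTCCtgagggcagcag
C1qc: gggacggcagacACTTCCtcattttggcac
S100a8: tccaacactcccACTTCCtcagactcagaa
S100a9: gttggatggaagGGAAGTgagccaactaac
Cd3d: aaattcccttacACTTCCtagaattctgaa
The element thus stood in the windows of C1qb and C1qc and in those of both S100 genes.

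Most of the listed genes had low counts, with Cd68 as the main exception, and each of the 6 libraries held counts of the list. Of the 31 members, 19 had at least 1 count in every library and 17 had more than 3 in every library. A further 11 exceeded 3 counts in some libraries only, and Flt3, S100a9 and Cpa3 stayed at or under 3 counts throughout. Counts of all members summed to between 3125 and 10773 per library. The summed level was 135 ± 17.3 CPM under the label Gpr125-negative, 277 ± 127 CPM in TEB-distal and 189 ± 58.8 CPM in nipple-proximal cells (SD, n = 2). Cd68, a macrophage gene, was the largest part of the sum in every library and made up 35.3% to 79.1% of it in each. Cd14 made up 38.1% and 13.9% under the label Gpr125-negative but 1.05% to 3.88% in the Gpr125+ libraries, and without Cd68 and Cd14 the means fell to 41.1, 67.4 and 43.3 CPM. Without both genes the lowest library was Gpr125-negative replicate 1 at 19.8 CPM, while the other library of that label, at 62.3 CPM, lay among the Gpr125+ libraries, which ranged from 43.2 to 73.0 CPM.

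**Figure D1:**
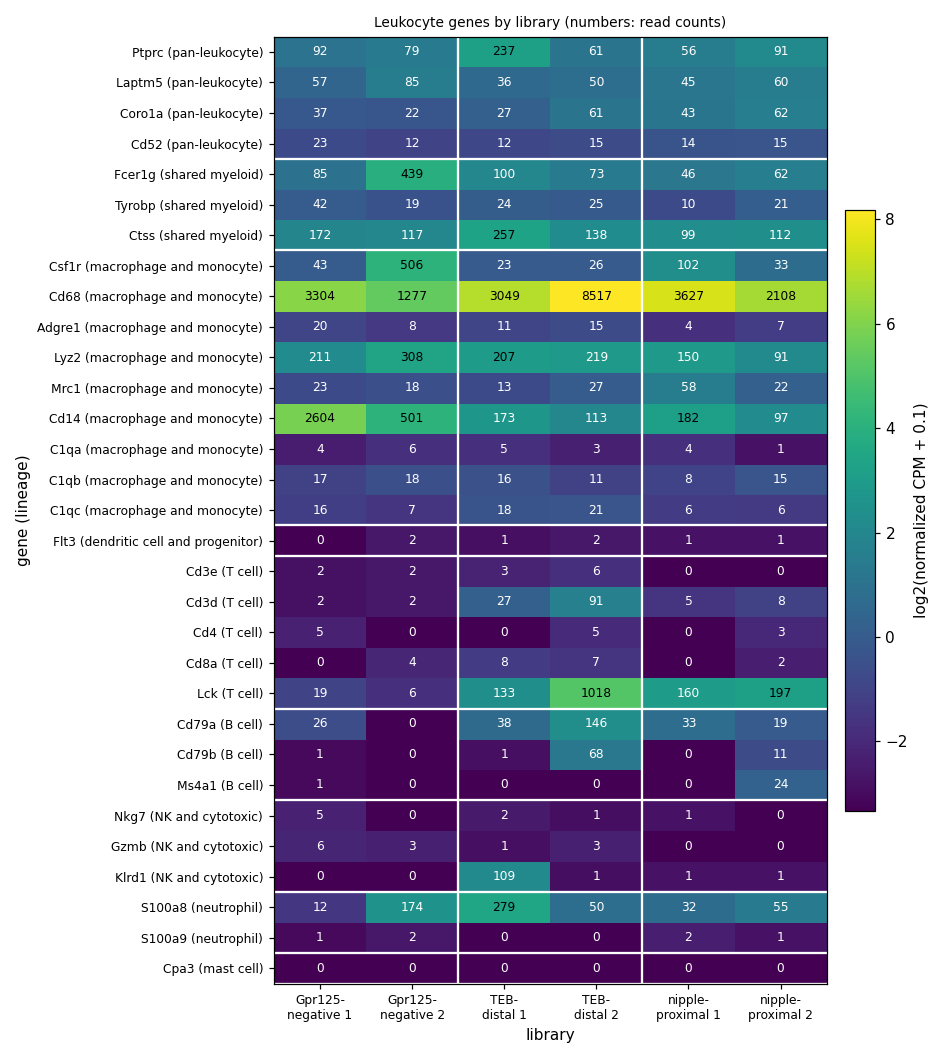
Read counts (numbers) and log2(normalized CPM + 0.1) (colour) of the 31 leukocyte genes (rows, by lineage) in the 6 libraries (columns). Cd68 is the brightest row in every library, from 1277 to 8517 counts, the rows of Flt3, S100a9 and Cpa3 stay dark, and several rows have 1 bright cell only, such as Klrd1 with 109 counts in TEB-distal replicate 1 and Ms4a1 with 24 in nipple-proximal replicate 2.

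The steadiness of the members across libraries differed widely. Among the 18 members that passed the filter on low counts and had a count in every library, the median ratio of the highest to the lowest library was 4.29, beside 5.40 over 12863 such genes of the whole table, and 9 of the 18 stayed under 4-fold, beside 35.4% of all such genes. The steady ones included Cd52 (1.74-fold), C1qb (1.93-fold), Tyrobp (2.01-fold), Laptm5 (2.35-fold), Lyz2 (2.44-fold), Adgre1 (2.60-fold) and Ctss (2.71-fold). The 9 variable ones were Lck (171-fold), Cd3d (72.0-fold), S100a8 (42.1-fold), Csf1r (19.4-fold), Cd14 (14.6-fold), Fcer1g (8.13-fold), Cd68 (6.70-fold), Mrc1 (5.76-fold) and Ptprc (4.67-fold). The libraries in which these peaked were not the same ones. Of the 28 members that exceeded 3 counts anywhere, 9 were highest in TEB-distal replicate 2, 5 each in TEB-distal replicate 1, nipple-proximal replicate 2 and Gpr125-negative replicate 2, 3 in Gpr125-negative replicate 1 and 1 in nipple-proximal replicate 1. Compared per kilobase of exon, so that genes of unequal length can be set side by side, the mean over the 6 libraries was 106 CPM per kb for Cd68, 9.34 for Cd14, 5.50 for S100a8, 5.39 for Fcer1g, 5.34 for Lyz2, 3.99 for Ctss and 3.28 for Lck. The range of Cd68 over the libraries lay above those of the others, which all overlapped each other. Ptprc stood at 0.209 CPM per kb, and ranked between the percentiles 12.2 and 28.7 of all genes tested, where Cd68 ranked between 90.7 and 98.5.

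The pan-leukocyte genes were present at low levels, and none had an unadjusted p under 0.05 by edgeR in any comparison. Ptprc, the gene of the gated antigen CD45, was at 1.98 and 2.68 CPM in the libraries labelled Gpr125-negative, 9.24 and 2.08 CPM in the TEB-distal and 2.75 and 4.28 CPM in the nipple-proximal libraries. The 237 counts of TEB-distal replicate 1 stood apart from the 56 to 92 counts of the other libraries, and the other TEB-distal library fell inside the range of the libraries labelled Gpr125-negative. Coro1a, which encodes an actin-binding protein of haematopoietic cells, was at 0.796 and 0.745 CPM in the libraries labelled Gpr125-negative, 1.05 and 2.08 CPM in the TEB-distal and 2.11 and 2.92 CPM in the nipple-proximal libraries. Here the groups did not overlap, and the nipple-proximal libraries were highest, from 22 to 62 counts per library. A short stretch of its exons, 0.934%, is shared with Bola2. Cd52, a small surface glycoprotein of lymphocytes and myeloid cells, was at 0.451 ± 0.063, 0.489 ± 0.030 and 0.697 ± 0.013 CPM in the Gpr125-negative, TEB-distal and nipple-proximal libraries (SD, n = 2), from 12 to 23 counts. Of its exon bases, 14.5% are shared with Crybg2 on the opposite strand, and reads of the shared part cannot be told apart in counts made without strand. Laptm5, a lysosomal membrane protein of leukocytes, was between 1.23 and 2.88 CPM, with both of those values in the libraries labelled Gpr125-negative.

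The shared myeloid genes encode the adaptor chains Fcer1g and Tyrobp, through which many activating receptors signal, and the lysosomal protease cathepsin S (Ctss). Fcer1g was at 1.83 and 14.9 CPM in the libraries labelled Gpr125-negative, 3.90 and 2.49 CPM in the TEB-distal and 2.26 and 2.92 CPM in the nipple-proximal libraries. Its 439 counts in Gpr125-negative replicate 2 were the exception, since the other 5 libraries had 46 to 100. Tyrobp showed no such peak: it had 19 counts in that library and 10 to 42 elsewhere. Ctss was at 3.70 and 3.96 CPM in the libraries labelled Gpr125-negative, 10.02 and 4.70 CPM in the TEB-distal and 4.86 and 5.27 CPM in the nipple-proximal libraries, so that all 4 Gpr125+ libraries were above both libraries labelled Gpr125-negative.

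The macrophage and monocyte genes divided into abundant and scarce ones. Cd68, the gene of the lysosomal glycoprotein macrosialin, which is abundant in macrophages but not restricted to them, was at 71.1 and 43.3 CPM in the libraries labelled Gpr125-negative, 119 and 290 CPM in the TEB-distal and 178 and 99.2 CPM in the nipple-proximal libraries. All 4 Gpr125+ libraries were higher than both libraries labelled Gpr125-negative. Cd14, the co-receptor for lipopolysaccharide, had the opposite order, with 56.0 and 17.0 CPM in the libraries labelled Gpr125-negative, 6.75 and 3.85 CPM in the TEB-distal and 8.94 and 4.57 CPM in the nipple-proximal libraries. Its 2604 counts in Gpr125-negative replicate 1 exceeded the 97 to 182 counts of the Gpr125+ libraries, and the groups did not overlap. Csf1r, the receptor for the macrophage growth factor CSF1, was at 0.925 and 17.1 CPM in the libraries labelled Gpr125-negative, 0.897 and 0.885 CPM in the TEB-distal and 5.01 and 1.55 CPM in the nipple-proximal libraries. Gpr125-negative replicate 2 held 506 counts of Csf1r and the other library of that label 43, a difference larger than that between any pair of groups, and 15.1% of its exon bases are shared with Hmgxb3 on the opposite strand.

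The genes by which tissue macrophages are most often recognised stayed low beside Cd68. Adgre1, which encodes the F4/80 antigen, had 4 to 20 counts per library, and its level was between 0.196 and 0.511 CPM. Lyz2, the lysozyme of macrophages and neutrophils, was at 4.54 and 10.4 CPM, 8.07 and 7.46 CPM, and 7.37 and 4.28 CPM in the Gpr125-negative, TEB-distal and nipple-proximal libraries, with groups that overlapped. Lyz2 has a near-identical paralog, Lyz1, so its counts are uncertain to the extent that reads were shared. Mrc1, the mannose receptor of resident macrophages, was at 0.495 and 0.610 CPM in the libraries labelled Gpr125-negative, 0.507 and 0.919 CPM in the TEB-distal and 2.85 and 1.04 CPM in the nipple-proximal libraries. The nipple-proximal libraries were highest, of which replicate 1 had 58 counts and replicate 2 had 22. The complement genes C1qa, C1qb and C1qc, which lie next to each other on chromosome 4 and encode the 3 chains of C1q, had 1 to 6, 8 to 18 and 6 to 21 counts. C1qc was at 0.291 ± 0.076, 0.708 ± 0.009 and 0.289 ± 0.009 CPM in the Gpr125-negative, TEB-distal and nipple-proximal libraries (SD, n = 2), so that both TEB-distal libraries were above the other 4, whereas C1qb was at 0.488 ± 0.172, 0.499 ± 0.176 and 0.550 ± 0.222 CPM with groups that overlapped.

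**Figure D2:**
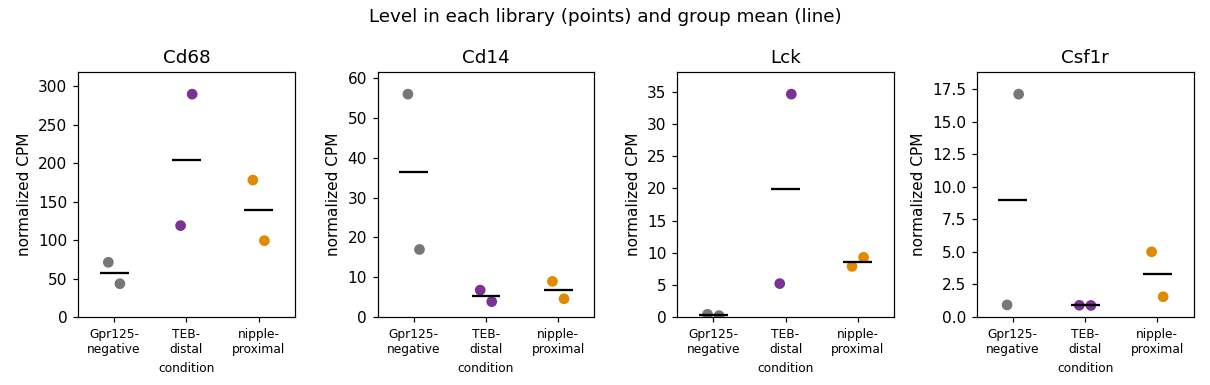
Normalized CPM (linear axes from 0) of Cd68, Cd14, Lck and Csf1r in each library (points) with the mean of the 2 libraries of each condition (line). The Gpr125+ points lie above both Gpr125-negative points for Cd68 and Lck and below both for Cd14, whereas the high Gpr125-negative mean of Csf1r rests on 1 library at 17.1 CPM.

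T cell genes were counted at unequal levels. Lck, the Src-family kinase that carries out the first step of T cell receptor signalling, was at 0.409 and 0.203 CPM in the libraries labelled Gpr125-negative, 5.19 and 34.7 CPM in the TEB-distal and 7.86 and 9.27 CPM in the nipple-proximal libraries. The 19 and 6 counts under the label Gpr125-negative stood against 133 to 1018 counts in the Gpr125+ libraries, and Lck made up 77.8% to 97.0% of the summed T cell level in the latter. Cd3d, a chain of the CD3 complex of the T cell receptor, was read 2 and 2 times under the label Gpr125-negative, 27 and 91 times in TEB-distal and 5 and 8 times in nipple-proximal cells. It was therefore highest in the TEB-distal libraries, at 2.08 ± 1.45 CPM (SD, n = 2). Its neighbour on chromosome 9, Cd3e, the CD3 chain most used to define T cells, had 2 and 2, 3 and 6, and 0 and 0 counts in the same order. The co-receptor genes Cd4 and Cd8a had at most 5 and 8 counts in any library and none in 3 and 2 of them. TEB-distal replicate 2, with 1018 counts of Lck, 91 of Cd3d, 6 of Cd3e, 5 of Cd4 and 7 of Cd8a, was the only library with more than 3 counts of all 5 T cell genes, against 2 or 3 of them elsewhere.

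B cell genes were counted mainly in a few libraries. Cd79a, a signalling chain of the B cell receptor, was at 0.559 and 0 CPM in the libraries labelled Gpr125-negative, 1.48 and 4.97 CPM in the TEB-distal and 1.62 and 0.894 CPM in the nipple-proximal libraries. All 4 Gpr125+ libraries were higher, with 19 to 146 counts against 26 and 0. Cd79b, the chain that pairs with it, had 1 and 0, 1 and 68, and 0 and 11 counts, so that its level in each Gpr125+ group rested on replicate 2. Ms4a1, which encodes the B cell antigen CD20, had 24 counts in nipple-proximal replicate 2 and at most 1 in each of the others. Nipple-proximal replicate 2 was the only library with more than 3 counts of all 3 B cell genes, and Gpr125-negative replicate 2 had none of them.

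NK, dendritic, mast cell and neutrophil genes were near the floor apart from a pair of genes. Klrd1, which encodes the NK receptor chain CD94, had 109 counts (4.25 CPM) in TEB-distal replicate 1 and at most 1 count in each of the others. Nkg7 and Gzmb, which encode granule proteins of cytotoxic cells, had 2 and 1 counts in that library and at most 5 and 6 in any. S100a8 was at 0.258 and 5.89 CPM in the libraries labelled Gpr125-negative, 10.9 and 1.70 CPM in the TEB-distal and 1.57 and 2.59 CPM in the nipple-proximal libraries. It was highest in TEB-distal replicate 1 with 279 counts and next in Gpr125-negative replicate 2 with 174, and the groups overlapped. S100a9, whose product joins that of S100a8 in calprotectin, had 0 to 2 counts in every library. Flt3, the cytokine receptor of dendritic cells and progenitors, had 0 to 2 counts, and Cpa3, the carboxypeptidase of mast cell granules, had 0 counts in all 6 libraries, which allows a level of up to 0.0645 to 0.147 CPM.

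Set side by side in each library, the lineages did not rise and fall together. The macrophage and monocyte sum was the highest of the lineages in every library, from 89.7 CPM in Gpr125-negative replicate 2 to 305 CPM in TEB-distal replicate 2. Cd68 alone made up 48.2% to 95.1% of it, and the sums cover unequal numbers of genes. The median gene of this lineage was at 0.178 to 0.560 CPM per kb, below the 2.09 to 4.46 of the shared myeloid genes. Among the lineages with a count in every library, the pan-leukocyte sum had the narrowest range as a ratio (2.71-fold), from 4.50 CPM in Gpr125-negative replicate 1 to 12.2 CPM in TEB-distal replicate 1. The T cell sum had a range from 0.474 CPM in Gpr125-negative replicate 2 to 38.4 CPM in TEB-distal replicate 2, 80.9-fold. The B cell sum was also highest in TEB-distal replicate 2, at 7.29 CPM, and was at 0 in Gpr125-negative replicate 2. The NK and the neutrophil sums were highest in TEB-distal replicate 1, at 4.37 and 10.9 CPM. In that library Klrd1 made up 97.3% of the NK sum and S100a8 all of the neutrophil sum, so each peak was that of 1 gene. The shared myeloid sum was highest in Gpr125-negative replicate 2, at 19.5 CPM, of which Fcer1g made up 76.3%.

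**Figure D3:**
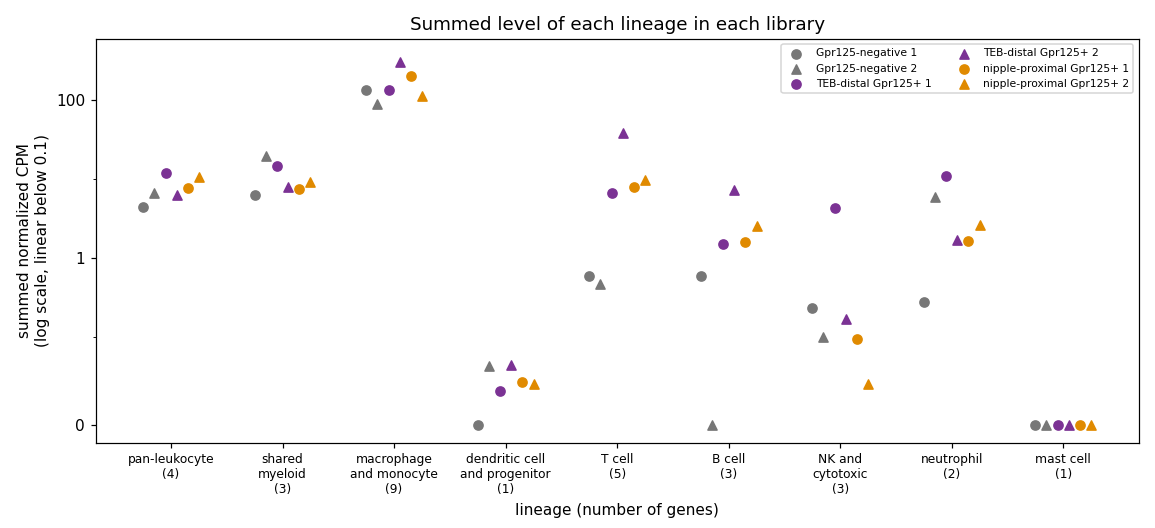
Summed normalized CPM (log scale, linear below 0.1) of the member genes of each lineage (horizontal axis, number of genes in brackets) in each of the 6 libraries (points; circles replicate 1, triangles replicate 2). The pan-leukocyte points lie between 4.50 and 12.2 CPM, the T cell points of the Gpr125+ libraries lie above both Gpr125-negative points, and the NK and neutrophil points are highest in TEB-distal replicate 1.

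Genes of chains that join in a complex (C1q, S100, CD3 and CD79) were compared within each library. The adaptors Tyrobp and Fcer1g, and Cd3d with Lck, were compared likewise, although these are not chains of 1 complex with each other. In 4 of the 8 pairs (Cd3g and Cd3d, Cd79b and Cd79a, Tyrobp and Fcer1g, Cd3d and Lck) the share changed between some libraries by more than its intervals, and in the other 4 the intervals of all libraries overlapped. Intervals below are exact (Clopper-Pearson, 95%) for the share of the first gene in the counts of the pair. S100a9 was 0 of 279 counts of the S100a8 and S100a9 pair in TEB-distal replicate 1 (upper limit 1.31%) and 2 counts beside 174 of S100a8 in Gpr125-negative replicate 2 (1.14%, 0.138% to 4.04%). Cd3e was 6.19% of the Cd3d and Cd3e pair in TEB-distal replicate 2 (2.30% to 13.0%), although the CD3 complex holds both chains. The remaining CD3 gene, Cd3g, had 106 counts against 27 of Cd3d in TEB-distal replicate 1 (79.7%, 71.9% to 86.2%) and 6 against 91 in replicate 2 (6.19%, 2.30% to 13.0%). The 2 TEB-distal libraries thus differed in which CD3 chain was counted by more than counting error. Cd79b was 31.8% of the Cd79a and Cd79b pair in TEB-distal replicate 2 (25.6% to 38.5%) and 36.7% in nipple-proximal replicate 2 (19.9% to 56.1%), but 2.56% in TEB-distal replicate 1 (0.0649% to 13.5%) and 0 of 33 in nipple-proximal replicate 1 (upper limit 10.6%). Tyrobp was 4.15% of the Fcer1g and Tyrobp pair in Gpr125-negative replicate 2 (2.52% to 6.40%) and 33.1% in replicate 1 of the same label (25.0% to 42.0%). The C1qc share of the C1qb and C1qc pair was between 28.0% and 65.6%, and the C1qa share of the C1qa and C1qb pair between 6.25% and 33.3%. Cd3d and Lck, both T cell genes and both higher in the Gpr125+ libraries, were in a per-kilobase ratio of 0.328 and 0.144 in TEB-distal cells and 0.050 and 0.066 in nipple-proximal cells.

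**Figure D4:**
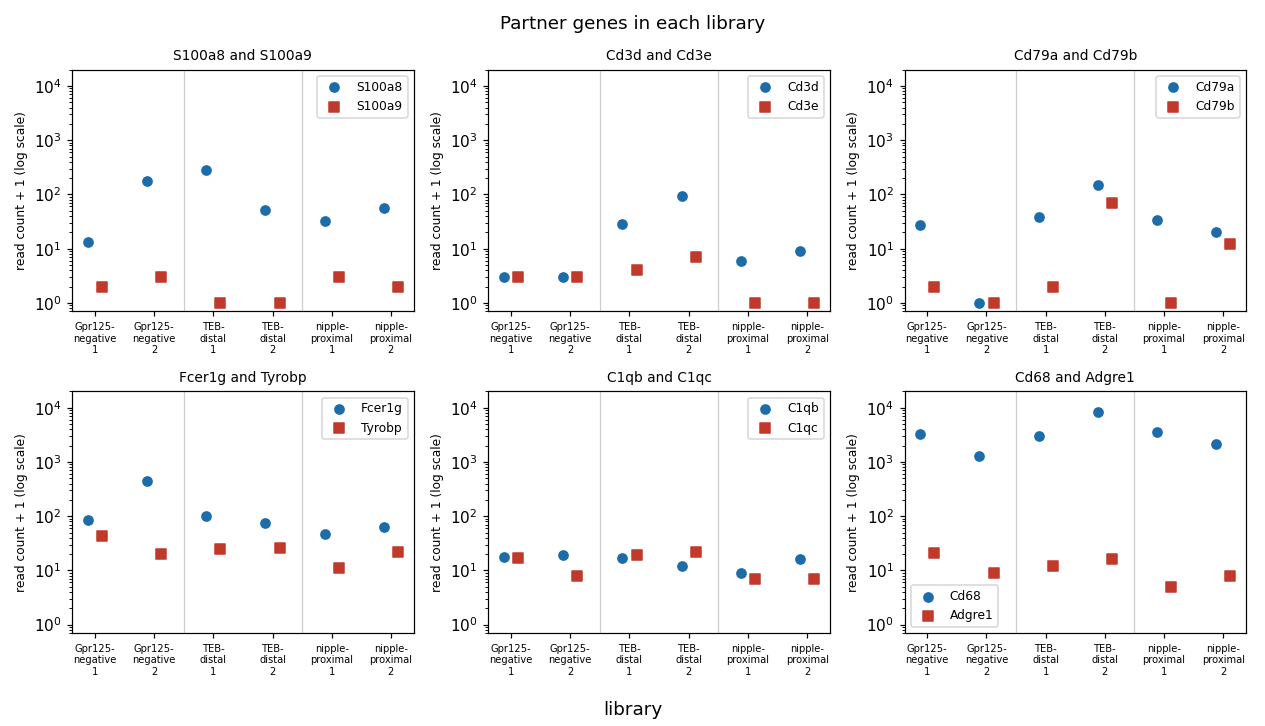
Read count + 1 (log scale) of 6 pairs of leukocyte genes in each of the 6 libraries (circles, first gene; squares, second gene). S100a9 stays at 2 counts or fewer where S100a8 reaches 279, Tyrobp does not follow the 439 counts of Fcer1g in Gpr125-negative replicate 2, Cd79b approaches Cd79a in both replicates 2 of the Gpr125+ groups, and C1qb and C1qc stay between 6 and 21 counts.

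The first comparison asked whether leukocyte transcripts of TEB-distal Gpr125+ cells differed from those of cells labelled Gpr125-negative. Lck and Cd68 stood higher and Cd14 lower in each TEB-distal library than in either library labelled Gpr125-negative. None of the 20 members that passed the filter on low counts was called by edgeR's quasi-likelihood test at an FDR under 0.1 with a change of at least 2-fold, as for all genes tested (0.00% of 17268). At an unadjusted p under 0.05, 3 members were higher (Lck, Cd3d and Cd68), where the share of all genes was 3.80%, and 1 was lower (Cd14), where it was 2.25%. Cd3d passed the filter only through the TEB-distal libraries, where it was high, so its place among the 3 was set by the filter. Lck was at 19.9 ± 20.8 against 0.306 ± 0.145 CPM (SD, n = 2), a log2 fold change of 5.99 (SE 1.48, adjusted p = 0.803 by edgeR), and 4.05 without TEB-distal replicate 2. Cd68 was at 204 ± 121 against 57.2 ± 19.7 CPM, a log2 fold change of 1.84 (SE 0.758, adjusted p = 0.815 by edgeR), which was 1.05 without TEB-distal replicate 2. Cd14 was at 5.30 ± 2.05 against 36.5 ± 27.6 CPM, a log2 fold change of -2.78 (SE 1.00, adjusted p = 0.803 by edgeR), which was -1.82 without Gpr125-negative replicate 1. Cd3d had 118 against 4 counts over the 2 libraries of each group, a ratio of 40.7 per normalized library size (exact 95% counting interval 15.5 to 152), with an adjusted p = 0.803 by edgeR, and its fitted log2 fold change of 5.14 was 4.15 without TEB-distal replicate 2. Cd79b had 69 against 1 count, a ratio of 95.3 (16.5 to 3818), of which 68 counts were in TEB-distal replicate 2.

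The median log2 fold change of these 20 members was 0.68, beside 0.03 over all genes tested. It was 0.17 over the 21 members that passed the filter without TEB-distal replicate 1. The median of the 20 was the same with Cd3d and Cd79b set to the lower limits of their counting intervals (ratios of 15.5 and 16.5). That was fixed beforehand, since both limits still lay above the median, so it is no check of the median. Of the 20, 8 had both TEB-distal values above both values of the label Gpr125-negative (Coro1a, Ctss, Cd68, C1qc, Cd3d, Lck, Cd79a and Cd79b), where 14.0% of all genes were, and 2 were lower (Csf1r and Cd14), where 10.0% were. The place of Cd79b among the 8 hung on values under the floor. It had 1 count in TEB-distal replicate 1 (0.0390 CPM) and 1 in Gpr125-negative replicate 1 (0.0215 CPM). Members such as Cd3d and Cd79b passed the filter only through libraries where they were high. These counts, and those of the comparisons below, therefore describe the 20 members only. Other tests gave other calls. DESeq2 on the 4 compared libraries called Lck (FDR 0.00272) and Klrd1 (FDR 0.0817) as higher, where it called 2.34% of 16659 genes, and 0 members as lower, where it called 1.67%. The FDR of Lck was between 5.24e-05 and 1 over the 13 alternatives. Klrd1 was at least 25.8-fold higher than the floor of 3 counts per library, and its call rested on TEB-distal replicate 1, since replicate 2 had 1 count. DESeq2 on all 6 libraries called 4 members, namely Lck, Cd3d (FDR 0.0376, range 0.0376 to 1), Cd14 (FDR 0.0858, range 0.0858 to 1) and Klrd1 (FDR 0.0464), of which Cd14 was lower, where it called 3.24% of 17360 genes higher and 2.19% lower. The endothelial markers moved with the same comparison, with a median log2 fold change of -6.34 and 7 of 8 lower at an unadjusted p under 0.05. The adipocyte markers summed to 21.2 to 32.2 CPM against 631 to 674 CPM. Fabp4 alone made up 99.6% and 99.99% of the sums under the label Gpr125-negative, so this difference was that of 1 gene. The basal epithelial markers had a median log2 fold change of 2.03, with 4 of 10 higher at an unadjusted p under 0.05, and summed to 3858 to 22186 CPM against 3383 to 3532 CPM. The fibroblast markers had a median log2 fold change of 2.01, with 1 of the 7 tested higher at an unadjusted edgeR p under 0.05. The luminal epithelial markers had one of 0.60, with 0 higher or lower at that p. Their sums were between 1445 and 2922 CPM over the 6 libraries. The part of these lists in the differences of the members was not tested.

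The second comparison asked the same of nipple-proximal Gpr125+ cells, against the same libraries labelled Gpr125-negative, so that it shares its controls with the first. Lck was again higher in both libraries and Cd14 lower. edgeR called 0 of the 20 members (0.00% of all genes), and at an unadjusted p under 0.05 Lck was higher, where 2.62% of all genes were, and Cd14 lower, where 0.927% were. Lck was at 8.57 ± 1.00 against 0.306 ± 0.145 CPM, a log2 fold change of 4.78 (SE 1.40, adjusted p = 1 by edgeR), and DESeq2 on the 4 compared libraries called it (FDR 0.00644, between 0.00644 and 1 over the 13 alternatives), where it called 1.07% of 15705 genes higher and 0.949% lower, with no other member among them. DESeq2 on all 6 libraries likewise called Lck alone (FDR 0.0103), where it called 1.19% of 16225 genes higher and 0.789% lower. Cd14 was at 6.75 ± 3.09 against 36.5 ± 27.6 CPM, a log2 fold change of -2.43 (SE 0.986, adjusted p = 1 by edgeR), which was -1.46 without Gpr125-negative replicate 1. Cd68 was at 139 ± 55.8 against 57.2 ± 19.7 CPM, a log2 fold change of 1.28 (SE 0.746, adjusted p = 1 by edgeR). Cd3d had 13 against 4 counts, a ratio of 5.94 (1.83 to 25.0), and Cd79b 11 against 1, a ratio of 20.1 (2.92 to 865) that rested on nipple-proximal replicate 2. The median log2 fold change of the 20 members was 0.35, beside -0.00 over all genes. It was 1.00 over the 22 members that passed the filter without Gpr125-negative replicate 2. Of the 20, 9 were higher in both nipple-proximal libraries (Ptprc, Coro1a, Cd52, Ctss, Cd68, Mrc1, Cd3d, Lck and Cd79a), where 19.9% of all genes were, and 1 was lower (Cd14), where 10.8% were. The endothelial markers had a median log2 fold change of -2.81 here and the basal epithelial markers one of 1.80. The adipocyte markers summed to 2.97 to 25.3 CPM, against the same control sums made up almost wholly of Fabp4. The fibroblast and luminal epithelial markers had median log2 fold changes of -0.39 and 0.42. The part of these lists was again not tested.

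The third comparison set the distal against the nipple-proximal Gpr125+ cells. No member passed a test: edgeR called 0 of 20 (0.00% of all genes), none had an unadjusted p under 0.05, where 0.747% of all genes were higher and 1.46% lower, and DESeq2 on the 4 compared libraries called 0 members, where it called 1.22% of 15702 genes higher and 1.07% lower. On all 6 libraries it also called 0 members, where it called 0.236% of 17360 genes higher and 0.507% lower. The lowest p was that of Cd3d, at 2.08 ± 1.45 against 0.311 ± 0.093 CPM (log2 fold change 2.72, SE 1.81, adjusted p = 1 by edgeR), which was 1.73 without TEB-distal replicate 2. Csf1r was at 0.891 ± 0.008 against 3.28 ± 2.44 CPM (log2 fold change -1.88, SE 1.70), and Mrc1 at 0.713 ± 0.292 against 1.94 ± 1.28 CPM (-1.44, SE 1.69), both higher in the nipple-proximal libraries with most of the counts in replicate 1. The differences of Lck (log2 fold change 1.22, SE 1.20) and S100a8 (1.59, SE 1.83) changed direction when a TEB-distal library was left out, to -0.74 for Lck without replicate 2 and to -0.22 for S100a8 without replicate 1. Of the 20 members, 4 were higher in both TEB-distal libraries (Adgre1, Lyz2, C1qc and Cd3d), where 15.2% of all genes were, and 5 were lower (Laptm5, Coro1a, Cd52, Csf1r and Mrc1), where 18.3% were. Cd3d passed the filter through the TEB-distal libraries alone, and Adgre1 and C1qc through these and Gpr125-negative replicate 1. The place of these genes in this count was thus set by the filter. The median log2 fold change of the 20 was 0.48, beside 0.06 over all genes. It was -0.04 over the 21 members that passed the filter without TEB-distal replicate 1. The fibroblast markers had a median of 2.83 in this comparison and the endothelial markers one of -2.43. Those of the basal and luminal epithelial markers were 0.11 and 0.15. The part of these lists in the differences of the members was not tested here either.

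**Figure D5:**
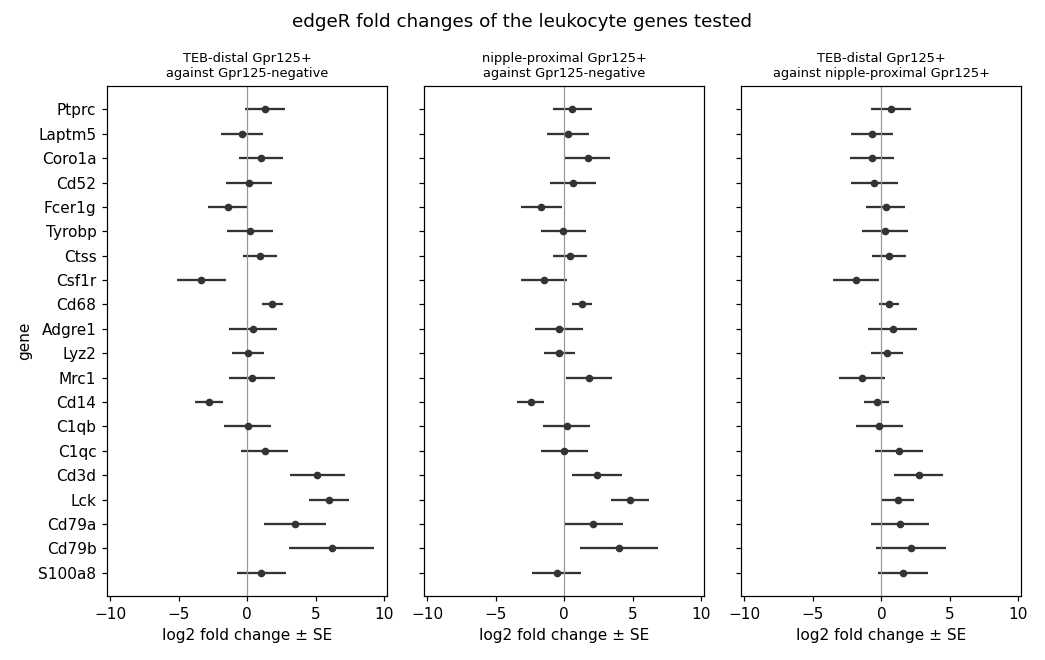
log2 fold change ± SE (horizontal axes) from edgeR fits of the 20 leukocyte genes that passed the filter on low counts (rows). Panels are the 3 comparisons, with the first-named group higher to the right, and the SE was worked back from the F statistic. Lck lies at 5.99 and 4.78 and Cd14 at -2.78 and -2.43 in the comparisons against Gpr125-negative libraries, most other genes lie within a few SE of 0, and no gene passed the adjusted threshold.

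Further genes of the same lineages, 84 in all, gave a similar picture of low and uneven counts. Of these, 41 passed the filter on low counts and edgeR called 0 in each comparison. At an unadjusted edgeR p under 0.05, 1 was higher and 1 lower in TEB-distal against Gpr125-negative libraries, beside 3.80% and 2.25% of all genes. In nipple-proximal against Gpr125-negative libraries 1 was higher and 1 lower, beside 2.62% and 0.927%. In TEB-distal against nipple-proximal libraries 1 was higher and 2 were lower, beside 0.747% and 1.46%. Counts this small are not read as a result about these genes. The median log2 fold changes of the 41 were 0.31, -0.06 and 0.45, beside 0.03, -0.003 and 0.06 over all genes tested. The further macrophage gene of highest mean over the 6 libraries, Mertk, a receptor for the uptake of dying cells, was at 38.9 and 40.8 CPM in the libraries labelled Gpr125-negative, 15.4 and 5.92 CPM in the TEB-distal and 11.4 and 7.20 CPM in the nipple-proximal libraries. Its groups were thus placed as those of Cd14 were, lower in all 4 Gpr125+ libraries. Csf2ra, a chain of the GM-CSF receptor, exceeded Mertk in both TEB-distal libraries, at 18.3 and 11.1 CPM, and Lyve1, a hyaluronan receptor, in nipple-proximal replicate 1, at 18.0 CPM. Irf8, a transcription factor of dendritic and myeloid cells, was read 2263 and 93 times under the label Gpr125-negative, 3 and 6 times in TEB-distal and 101 and 32 times in nipple-proximal cells. Of the further T cell genes, Tcf7, which encodes the transcription factor TCF1, was the most abundant at 11.4 to 37.4 CPM, but it is not restricted to T cells, and its level is given here as no measure of them. Trbc2, a constant segment of the T cell receptor, had 263 counts in Gpr125-negative replicate 2, 187 in TEB-distal replicate 2 and 42 to 92 elsewhere. Zap70, the kinase that acts after Lck, had 235 counts in TEB-distal replicate 2 and at most 12 in any other. The library with the most Lck was thus also the one with the most Zap70, while Cd3e had 6 counts there. Igkc, an antibody light chain, had counts (13 and 19) only in nipple-proximal cells and 0 elsewhere, and Ighm had 154 in Gpr125-negative replicate 2 and 13 to 25 elsewhere. Of the mast cell and neutrophil genes, Tpsb2 and Ly6g had 27 and 43 counts in TEB-distal replicate 2 and 0 in every other library, while Cpa3 had none there and S100a9 had none. Other genes of these lists were not confined to that library. Hdc led the further mast cell and basophil sum in every library except Gpr125-negative replicate 2. Mpo made up 92.9%, 90.0% and 89.3% of the further neutrophil sum in Gpr125-negative replicate 2, TEB-distal replicate 1 and nipple-proximal replicate 2.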

How the data were processed

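RNA-seq read counts of 6 libraries were used. The authors aligned reads to mm10 with STAR (the version differs between the methods text and the processing notes, which give 2.7.3), counted them per gene with HTSeq and deposited the counts without normalization or regard to strand. The annotation release is not given in the sources used here. Groups and replicate numbers came from the sample labels. The analysis used edgeR 4.0.16 under R 4.3.3 (TMM, filterByExpr by group, robust glmQLFit, glmQLFTest), in 1 fit of 3 groups over 17268 genes. A call needed an FDR (Benjamini-Hochberg) under 0.1 and a change of 2-fold or more, the thresholds of the study. Alternatives were DESeq2 1.42.0 on 6 or 4 libraries, its size factors in edgeR, no filter on low counts, edgeR on 4 libraries, the replicate block, no robust estimation and leaving out each library. The sums without Cd68 and Cd14 were added after seeing the data. Each SE of an edgeR fold change was worked back as the absolute log2 fold change over the square root of the quasi-likelihood F statistic. It is not a direct output of edgeR, nor the spread between the 2 libraries of a group. The biological coefficient of variation was 0.967. With 2 libraries against 2, an exact two-sided permutation test cannot go below p = 0.333, so none was used. Replicates held different counts, and whether they came from separate preparations is not stated, so the spread may be technical. Exon lengths and overlaps are from GENCODE M21 (GRCm38). Named genes were all 31 members, the up to 3 most abundant genes of each further list and Adgra3, and fold changes were printed for the 5 members of lowest p per comparison. Cd3g, Tpsb2 and Ly6g were named as partners of members or among those 3. The members and lists were chosen with earlier results of these data known. The scripts were tested on simulated data.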

Additional observations from a re-analysis of the deposited data

How the results depend on the processing

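Counts of calls depended on the test. Against 0 genes called by edgeR in each comparison, DESeq2 on all 6 libraries called 943 (TEB-distal against Gpr125-negative), 321 (nipple-proximal against Gpr125-negative) and 129 (TEB-distal against nipple-proximal), DESeq2 on the 4 compared libraries 667, 317 and 360, and edgeR with no filter on low counts 137, 58 and 39. Members called were 4, 1 and 0 with DESeq2 on 6 libraries, 2, 1 and 0 on 4 libraries, and 1 (Lck), 0 and 0 with no filter. Leaving out each library gave 0 to 747, 0 to 335 and 0 to 12 genes, the highest without Gpr125-negative replicate 1 in the first and second comparison and without nipple-proximal replicate 2 in the last, and 0 members throughout. In the first comparison, 4 genes were called without Gpr125-negative replicate 2 and 45 and 46 without nipple-proximal replicates 1 and 2. In the second, 4 were called without either nipple-proximal library. A group left with 1 library was assumed to vary like the others, and the cause of these differences was not tested. The median log2 fold change was 0.68 over 20 members in the first comparison. Other settings took in other members, so a change of genes and a change of method cannot be told apart in their medians. It was 0.49 over 30 members with either DESeq2 fit, 0.47 over 30 with no filter and 0.42 over 19 with edgeR on 4 libraries. Leaving out a library put it between 0.17 and 0.94, over 21 or 22 members. For nipple-proximal against Gpr125-negative that range was 0.12 to 1.00, and for TEB-distal against nipple-proximal it reached from -0.043 to 0.58. Directions reversed for Cd79b, nipple-proximal against Gpr125-negative, at -1.94 without nipple-proximal replicate 2 (highest 5.69), and, TEB-distal against nipple-proximal, for Lck at -0.74 without TEB-distal replicate 2 (highest 2.08) and S100a8 at -0.22 without TEB-distal replicate 1 (highest 2.37). The summed member level without Cd68 and Cd14 was 41.1, 67.4 and 43.3 CPM in the Gpr125-negative, TEB-distal and nipple-proximal libraries, and leaving out 1 library of the group put the full sum between 123 and 147, 188 and 367, and 147 and 230 CPM. Replicate numbers were shared across groups. The correlations over genes of the deviations of same-numbered libraries were -0.0347, 0.194 and -0.00495 in the 3 comparisons. That of nipple-proximal and Gpr125-negative libraries was the highest, but no error of these correlations was computed. The replicate numbers were not taken to pair the libraries. A fit that took the replicate number as a block called 0 genes and 0 members in each comparison, with medians of 0.64, 0.39 and 0.46. Counts under about 20 per library, as for Adgre1, C1qc or Cd3e, limit what these data can show for those genes.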
